A study of Mus musculus with 18 samples.

Results

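The genes described here are 8 genes with which a macrophage recognises phosphatidylserine on a dying cell and takes the cell up: *Mfge8*, *Itgav*, *Itgb3*, *Itgb5*, *Cd300lf*, *Tgm2*, *Elmo1* and *Dock1*. They were chosen by name, with earlier results of these data known, from the 20615 genes of an RNA-seq table of bone marrow-derived macrophages (BMDMs), and each name matched 1 row. All 8 passed the filter on low counts that left 15789 genes for testing.

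A cell that dies by apoptosis exposes phosphatidylserine, a lipid otherwise kept on the inner face of the membrane, and phagocytes read it as a signal to engulf the cell, a process called efferocytosis. The secreted protein MFG-E8 binds the lipid at one end and, through an arginine-glycine-aspartate (RGD) motif, the integrins alpha v beta 3 and alpha v beta 5 at the other, whereas CD300LF, a receptor with inhibitory motifs, binds lipids directly. Inside the macrophage, ELMO1 and DOCK1 form an exchange factor that activates the small GTPase Rac, which drives the actin rearrangement of uptake, and transglutaminase 2, an enzyme that crosslinks proteins, also acts at the surface as a partner of beta 3 integrin.

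BMDMs, macrophages grown from bone marrow with M-CSF from L929 supernatant, came from C57BL/6 (B6) mice and from C57BL/6.NOD-Aec1Aec2 (SjSS) mice, a model of Sjögren's syndrome that carries NOD intervals on the B6 background, all 7 to 12 weeks of age. BMDMs of each strain were left untreated (control), given CpG, an oligonucleotide that activates an endosomal Toll-like receptor, at 1 µM for 6 h, or given apoptotic cells (ACs) at 5 per BMDM for 2 h. The ACs were thymocytes killed with dexamethasone, they were washed off, and the labels give a further 3 h of culture, whereas the study's methods give another time. There were 3 samples in each of the 6 groups, 18 in all, and the total estimated count per sample ranged from 30688288 in an SjSS control to 57139640 in a B6 control, with a median of 47912516. Thymi were taken from both strains, and which thymocytes each BMDM strain received is not given in the sources used here. The study grew BMDMs from 3 mice per strain, but the sources used here do not state that samples of 1 number in the control, AC and CpG groups came from 1 mouse, so p-values measure the spread between these samples. Macrophage markers were high throughout, with 8 markers summing to between 15105 and 23748 CPM, a gene's count scaled to its library's total. In such bulk samples, fewer cells of a type and less RNA per cell cannot be told apart.

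*Mfge8* lies on the minus strand of chromosome 7 (mm10, 79133768 to 79149061 in the deposited table). Its RGD codons are shown because they are the contact between this gene and the integrin genes described after it. In both full coding transcripts of GENCODE M21, which encode 426 and 463 residues, the motif starts at residue 87, in exon 3, at chr7:79145299-79145325 for the 27 bases printed, minus strand, with the 9 bases of the motif in capitals. The counts were summed per gene and do not separate these 2 isoforms.
Mfge8 coding sequence, exon 3: gacacacagCGTGGGGACatcttcacc

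Promoters were available for 6 of the 8 genes (not *Itgb3* and *Tgm2*) from RefSeq, build GRCm38.p6. Those of 3 genes are shown as the 250 bases before the annotated start: *Mfge8*, which differed most between the strains, and *Itgb5* and *Cd300lf*, which fell furthest with CpG. Capitals mark matches, on either strand, to any of 4 motifs of factors active in stimulated macrophages: the interferon-stimulated response element core GAAANNGAA, the gamma-activated sequence TTCNNNGAA, the kappa B sequence GGGNNTTCC and the AP-1 sequence TGANTCA. The Mfge8 window is chr7:79149061-79149310 on the minus strand, the Itgb5 window chr16:33829415-33829664 on the plus strand, and the Cd300lf window chr11:115133993-115134242 on the minus strand.
Mfge8 promoter: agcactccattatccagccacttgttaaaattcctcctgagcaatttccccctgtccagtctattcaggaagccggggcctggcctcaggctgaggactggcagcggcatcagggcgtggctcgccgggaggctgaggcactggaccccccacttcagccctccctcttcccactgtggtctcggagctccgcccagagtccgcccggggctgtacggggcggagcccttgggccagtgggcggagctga
Itgb5 promoter: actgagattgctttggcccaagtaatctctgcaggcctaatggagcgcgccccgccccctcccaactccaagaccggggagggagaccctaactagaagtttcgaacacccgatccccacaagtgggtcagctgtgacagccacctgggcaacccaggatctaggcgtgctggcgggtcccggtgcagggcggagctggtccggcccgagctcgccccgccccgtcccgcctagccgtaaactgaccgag
Cd300lf promoter: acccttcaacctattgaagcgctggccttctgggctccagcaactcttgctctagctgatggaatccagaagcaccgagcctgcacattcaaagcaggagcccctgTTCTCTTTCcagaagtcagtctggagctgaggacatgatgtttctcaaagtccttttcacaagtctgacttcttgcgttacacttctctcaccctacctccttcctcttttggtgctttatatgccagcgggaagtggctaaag
The Mfge8 and Itgb5 windows held none of the 4 letter strings, and the Cd300lf window held 1 match to the interferon-stimulated core, between 144 and 136 bases before the start. Over 32851 promoters of the same length, 7.13% held that core, 7.02% the gamma-activated sequence, 4.98% the kappa B sequence and 6.75% the AP-1 sequence. Among the other windows, that of *Itgav* held 1 match to the core, that of *Dock1* none, and of 2 windows of *Elmo1* the upstream one held none and the downstream one held 2 gamma-activated sequences and 1 core, the second of the 2 overlapping the core. Neither *Elmo1* window ended at the start of a GENCODE M21 transcript. These are matches of letters in the reference sequence and say nothing of binding.

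In untreated BMDMs the genes spanned a wide range. Compared per length, as RPKM (CPM per kilobase of exon), the mean level in B6 controls was highest for *Tgm2* at 227 ± 28.5 and *Itgb5* at 159.8 ± 9.31 (SD, n = 3, as for all such values). *Itgav* at 38.1 ± 2.80 RPKM and *Mfge8* at 36.2 ± 9.10 RPKM followed and did not differ beyond their spread. *Elmo1* at 7.57 ± 0.320, *Cd300lf* at 6.38 ± 1.09 and *Dock1* at 5.55 ± 0.301 RPKM formed a lower tier, and *Itgb3* was last at 0.597 ± 0.199 RPKM. In SjSS controls *Itgb5*, at 221 ± 5.80 RPKM, was level with *Tgm2*, at 218 ± 22.2 RPKM, and *Mfge8*, at 62.6 ± 5.51 RPKM, stood above *Itgav*, at 37.0 ± 6.94 RPKM. *Itgb3* was the lowest of the 8 in every group.

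With ACs in B6 BMDMs, 7 of the 8 genes passed edgeR's quasi-likelihood test at an adjusted p under 0.05, 2 higher and 5 lower, where 20.0% of all tested genes were higher and 18.3% lower. None of the 8 also passed a log2 fold change of 1.3 in size, the threshold beyond which a gene is named called here, and 4.47% of all genes did. With ACs in SjSS BMDMs 3 of the 8 passed, 2 higher and 1 lower, where 28.6% of all genes were higher and 29.4% lower, and 1 was called, where 12.9% of all genes were. With CpG in B6, 1 was higher and 6 were lower, where 28.1% of all genes were higher and 29.8% lower, and 2 were called, where 12.7% were. With CpG in SjSS, 1 was higher and 7 were lower, where 27.8% were higher and 26.4% lower, and 2 were called, where 9.26% were. *Elmo1* was the only gene that rose with CpG in either strain. The median log2 fold change of the 8 genes was -0.541 with ACs in B6, where that of all genes was 0.001, and -0.168 with ACs in SjSS, where that of all genes was -0.017. With CpG it was -0.978 in B6 and -0.705 in SjSS, where the medians of all genes were -0.041 and -0.014.

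**Figure D1:**
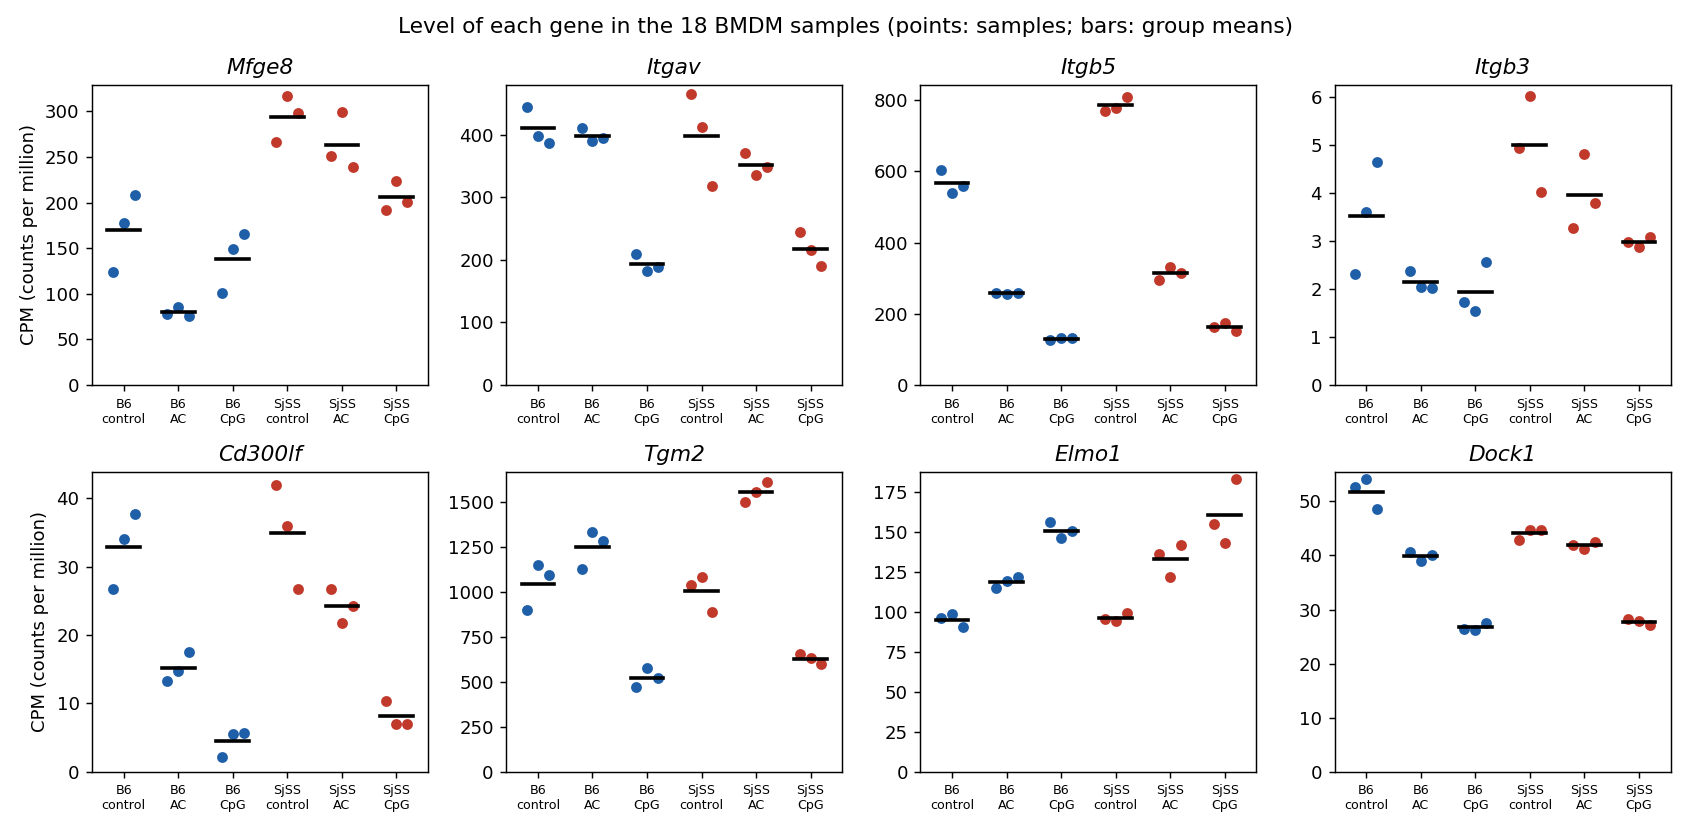
Level of each of the 8 genes in CPM (y axis, from 0) in the 18 samples, by strain and treatment (x axis; blue B6, red SjSS). Each point is 1 sample and each bar the mean of 3. *Mfge8* is lowest in AC treated B6 BMDMs, *Itgb5* steps down from control to ACs to CpG in both strains, *Cd300lf* is lowest with CpG in both, and *Elmo1* steps up.

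The bridging molecule *Mfge8* separated the strains under ACs. In the 3 B6 control samples it was at 124, 178 and 208 CPM, and in the 3 AC treated B6 samples at 77.5, 85.8 and 75.6 CPM. In SjSS it was at 266, 317 and 298 CPM in controls and at 251, 299 and 239 CPM with ACs. The B6 samples with ACs all lay below the B6 controls, while the SjSS samples with and without ACs overlapped. *Mfge8* fell with ACs in B6, with a log2 fold change of -1.09 (SE 0.17, adjusted p = 3.54e-05 by edgeR's quasi-likelihood test), whereas its log2 fold change in SjSS was -0.16 (SE 0.16, adjusted p = 0.428). The difference between the 2 responses, the interaction of strain and AC, was itself 0.93 (SE 0.23, adjusted p = 0.00365 by edgeR).

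SjSS BMDMs had more *Mfge8* than B6 BMDMs in every treatment. The strain difference was 0.79 on the log2 scale without treatment (SE 0.16, adjusted p = 0.00225), and with ACs it was 1.72 (SE 0.17, adjusted p = 8.42e-08 by edgeR), a 3.30-fold higher level that made *Mfge8* the only one of the 8 genes called between the strains. With CpG the samples were at 100.4, 149 and 166 CPM in B6 and at 192, 224 and 201 CPM in SjSS, without overlap, and the strain difference was 0.57 (SE 0.16, adjusted p = 0.0188 by edgeR). That last result rested on single samples, since the adjusted p was 0.0973 without CpG treated B6 replicate 1 and 0.0759 without CpG treated SjSS replicate 2. The response to CpG was -0.51 in SjSS (SE 0.16, adjusted p = 0.0121 by edgeR). In B6 it was -0.30 (SE 0.16, adjusted p = 0.131), and the adjusted p became 0.0210 with the replicate number as a block within strain, 0.0108 without control replicate 1 and 0.0418 without CpG treated replicate 3. The 2 CpG responses did not differ by test (interaction -0.22, SE 0.23, adjusted p = 0.655 by edgeR).

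A list of 6 fibroblast markers differed between the strains in its summed level, which was between 41.2 and 136 CPM in the 9 B6 samples and between 152 and 237 CPM in the 9 SjSS samples, without overlap in any treatment. The difference lay mostly in 2 collagen chains, *Col1a1* and *Col1a2*, at mean levels of 36.4 and 48.1 CPM in B6 controls and 88.6 and 100.3 CPM in SjSS controls, and of 33.5 and 45.8 CPM against 83.9 and 114 CPM with ACs. *Col3a1*, another collagen chain, was at mean levels of 7.82 and 8.99 CPM in B6 and SjSS controls and of 13.4 and 10.8 CPM with ACs, and *Pdgfrb* at 3.47 and 4.69 CPM in controls and 4.37 and 5.57 CPM with ACs. *Lum* was at 0 in both control groups and the mean of *Dcn* was at or below 0.840 CPM in every group. Within B6 the summed level was 45.1 to 136 CPM in controls and 81.4 to 119 CPM with ACs, which overlap. The part of these markers in the differences of *Mfge8* was not tested. Dendritic cell markers, 5 of 6 in the table, summed to at most 3.48 CPM in any sample. With ACs their sum was 1.16 to 1.42 CPM in B6 and 2.63 to 3.48 CPM in SjSS, without overlap. *Xcr1* was at mean levels of 0.426 and 2.13 CPM in these groups, and *Zbtb46* at 0.654 and 0.515 CPM. The part of the dendritic cell markers in the *Mfge8* difference was not tested either.

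**Figure D2:**
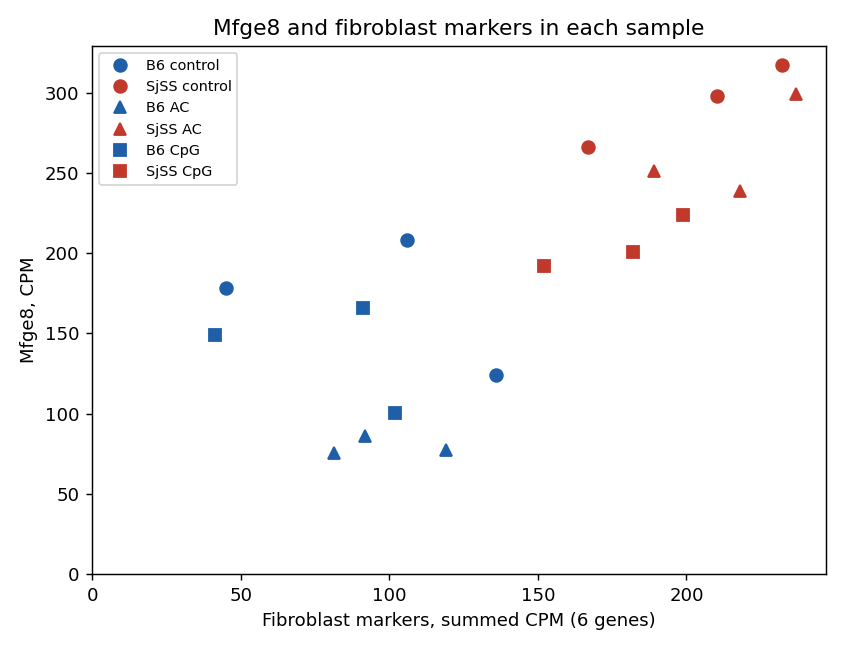
*Mfge8* level (y axis, CPM) against the summed level of 6 fibroblast markers (x axis, CPM) in each of the 18 samples; blue is B6, red SjSS, and the shapes are treatments. The strains separate on both axes with ACs, and the 3 AC treated B6 samples lie lowest on the y axis, at 75.6 to 85.8 CPM, inside the range of the B6 controls on the x axis.

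Of 10 other genes for bridging molecules (*Gas6*, *Pros1*, *Thbs1*, *C1qa*, *C1qb*, *C1qc*, *Edil3*, *Anxa1*, *Anxa5* and *Apoh*) 9 were in the table and tested. With ACs, 5 fell and 2 rose in B6, where 20.0% of all genes rose and 18.3% fell, and 0 fell and 5 rose in SjSS, where 28.6% of all genes rose and 29.4% fell. AC treated SjSS BMDMs had higher levels than AC treated B6 BMDMs for 9 of the 9, with a median log2 difference of 0.55 against -0.05 over all genes, and the interaction of strain and AC passed for 7, all higher. Over all genes, 24.0% were higher in SjSS with ACs and 19.6% had a higher interaction. None of the 9 was called in these comparisons. Of all genes, 4.47% were called with ACs in B6, 12.9% in SjSS, 8.93% between AC treated strains and 7.53% in the interaction.

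The integrin *Itgav*, the alpha v chain, fell with CpG and did not pass the test with ACs in either strain. It was at 387 to 444 CPM in B6 controls, 389.5 to 411 CPM with ACs and 182 to 209 CPM with CpG, and in SjSS at 318 to 465, 336 to 371 and 190.1 to 245 CPM. In both strains the CpG samples lay below all others, while control and AC samples overlapped. The log2 fold change with CpG was -1.09 in B6 (SE 0.11, adjusted p = 6.27e-08) and -0.88 in SjSS (SE 0.11, adjusted p = 1.33e-06 by edgeR). With ACs it was -0.04 in B6 (SE 0.11, adjusted p = 0.810) and -0.18 in SjSS (SE 0.11, adjusted p = 0.171), the latter passing at 0.00689 without control replicate 3, the lowest SjSS control. The strains did not differ in *Itgav* by test in any treatment, with log2 differences of -0.04, -0.18 and 0.17 (SE 0.11 each) without treatment, with ACs and with CpG, although the samples with ACs did not overlap and the adjusted p was 0.0138 in a fit of those groups alone.

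*Itgb5*, the beta 5 chain, stepped down from control to ACs to CpG in both strains. In B6 the samples were at 604, 539.5 and 559 CPM in controls, at 258, 255 and 259.7 CPM with ACs and at 126, 131 and 133 CPM with CpG. In SjSS they were at 769.7, 778 and 809 CPM in controls, at 294, 332 and 315 CPM with ACs and at 163, 174 and 152 CPM with CpG. No 2 of the 6 groups overlapped, and within each treatment the SjSS samples lay above the B6 samples. The log2 fold change with ACs was -1.14 in B6 (SE 0.06, adjusted p = 4.36e-11) and -1.32 in SjSS (SE 0.06, adjusted p = 4.59e-13 by edgeR). The latter passed the fold threshold only narrowly, and without AC treated SjSS replicate 1, the lowest of its group, 0 of the 8 genes were called. With CpG it was -2.12 in B6 (SE 0.06, adjusted p = 1.85e-15), a 4.36-fold lower level, and -2.27 in SjSS (SE 0.06, adjusted p = 1.10e-15), 4.82-fold lower.

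The strain difference of *Itgb5* was 0.47 on the log2 scale without treatment (SE 0.06, adjusted p = 1.79e-05), 0.28 with ACs (SE 0.06, adjusted p = 5.28e-04) and 0.32 with CpG (SE 0.06, adjusted p = 6.59e-04 by edgeR). The summed fibroblast markers, led by *Col1a1* and *Col1a2*, were also higher in SjSS in each treatment, as given above, and their part in this difference was not tested. The AC responses of the strains differed by -0.18 (SE 0.08, adjusted p = 0.0885 by edgeR) and the CpG responses by -0.15 (SE 0.08, adjusted p = 0.345). The former passed at 0.0405 without B6 control replicate 1 and at 0.0471 without AC treated SjSS replicate 2.

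*Itgb3*, the beta 3 chain that also marks platelets and osteoclasts, was scarce. It was at 2.31, 3.61 and 4.65 CPM in B6 controls and 2.38, 2.04 and 2.03 CPM with ACs, so that 1 control lay inside the AC range. In SjSS it was at 4.94, 6.03 and 4.02 CPM in controls, 3.28, 4.82 and 3.79 CPM with ACs and 2.99, 2.87 and 3.08 CPM with CpG, and in B6 with CpG at 1.73, 1.54 and 2.56 CPM. The log2 fold change with ACs in B6 was -0.71 (SE 0.23, adjusted p = 0.0215 by edgeR), and it did not pass without B6 control replicate 2 or 3 (adjusted p = 0.0519 and 0.161) or AC treated B6 replicate 2 or 3 (0.0693 and 0.0679). In SjSS it was -0.32 (SE 0.22, adjusted p = 0.230). With CpG *Itgb3* fell by 0.84 on the log2 scale in B6 (SE 0.24, adjusted p = 0.00478) and by 0.74 in SjSS (SE 0.23, adjusted p = 0.0102 by edgeR), the latter with an adjusted p of 0.0554 without SjSS control replicate 2.

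Between the strains *Itgb3* was higher in SjSS with ACs, by 0.88 on the log2 scale (SE 0.23, adjusted p = 0.00412 by edgeR), with no overlap of samples. The differences of 0.50 without treatment (SE 0.22, adjusted p = 0.126) and 0.61 with CpG (SE 0.24, adjusted p = 0.0862) did not pass, but did without B6 control replicate 3 (0.0302) and without CpG treated B6 replicate 3 (0.0337). The summed level of 6 megakaryocyte and platelet markers was 641 to 748 CPM with ACs in B6 and 1029 to 1248 CPM with ACs in SjSS, without overlap. It was nearly all *Pf4*, at mean levels of 687 and 1112 CPM, and 4 of the 6 without *Pf4* and *Ppbp* (a set trimmed after values were seen) summed to 0.854 to 0.889 CPM in B6 and 0.646 to 0.965 CPM in SjSS. The summed level of 6 osteoclast markers was 109.9 to 139 CPM with ACs in B6 and 183 to 218 CPM with ACs in SjSS, also without overlap, and was nearly all *Acp5*, at mean levels of 118 and 198 CPM. *Dcstamp* was at mean levels of 0.310 and 0.873 CPM in these groups and *Ctsk* at 2.43 and 1.37 CPM, while *Calcr* was at 0 in both control groups and *Oscar* at 0 in SjSS with ACs. Summed fibroblast markers were higher in SjSS with ACs as well. The part of these 3 lists in the difference of *Itgb3* was not tested.

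Among the 4 tested beta partners of alpha v, *Itgb1* rose with ACs in SjSS and *Itgb8* in both strains, while *Itgb5* fell in both. *Itgb1*, the widely expressed beta 1 chain, rose with ACs in SjSS by a log2 fold change of 0.57 (SE 0.07, adjusted p = 8.59e-07 by edgeR), was at 0.07 in B6 (SE 0.07, adjusted p = 0.470), and differed between the strains in that response by 0.50 (SE 0.10, adjusted p = 4.95e-04). Per length, *Itgb5* and *Itgb1* had like mean levels in B6 controls, at 159.8 and 137 RPKM, and with CpG *Itgb5* was at 36.7 RPKM and *Itgb1* at 215 RPKM. In SjSS *Itgb5* went from 221 RPKM in controls to 88.3 with ACs, and *Itgb1* from 133 to 197 RPKM. *Itgb8*, whose integrin activates latent TGF-beta, rested on few counts, 7 over the 3 B6 controls and 17 over the 3 SjSS controls. It was at 0.0440 ± 0.0246 CPM in B6 controls and 0.718 ± 0.170 CPM with ACs, and at 0.115 ± 0.0583 and 4.38 ± 0.501 CPM in SjSS. It was called higher with ACs in both strains, with adjusted p of 1.64e-06 in B6 and 3.47e-10 in SjSS by edgeR. The 2 responses did not differ by test (adjusted p = 0.272), a test that rests on those few control counts. Between AC treated strains *Itgb8* was called higher in SjSS, by 2.61 on the log2 scale (SE 0.28, adjusted p = 3.52e-07 by edgeR). With CpG it was called higher too, at 5.21 in B6 (SE 0.43, adjusted p = 4.22e-09) and 3.13 in SjSS (SE 0.39, adjusted p = 1.44e-06 by edgeR). The fifth partner, *Itgb6*, was not in the deposited table.

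**Figure D3:**
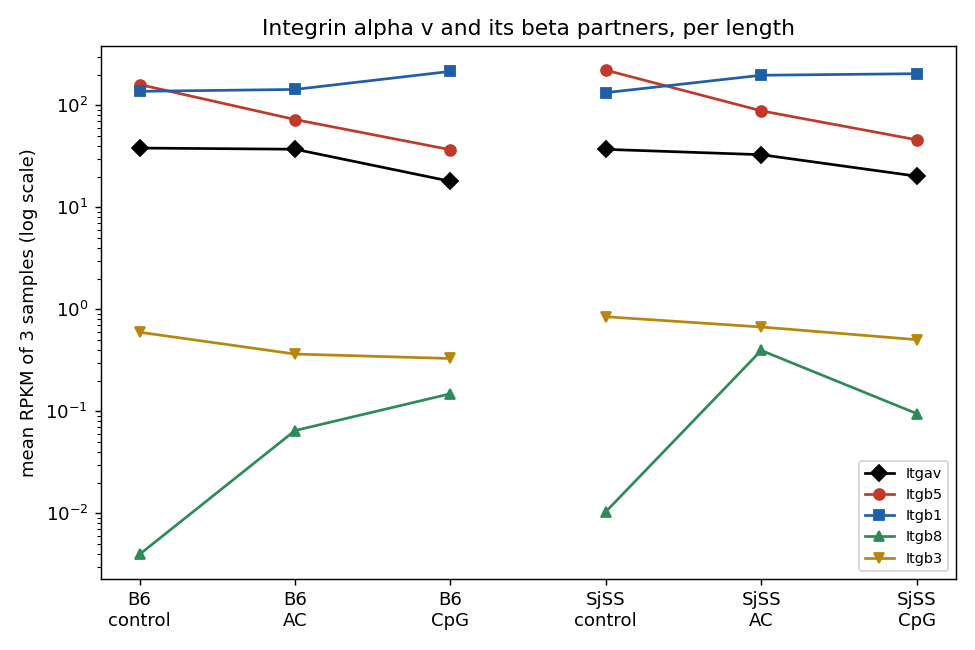
Mean RPKM of 3 samples (y axis, log scale) of *Itgav* and its 4 tested beta partners in each group (x axis). *Itgb5* falls from 159.8 to 36.7 RPKM and *Itgb1* rises from 137 to 215 RPKM between B6 controls and CpG, so that their order turns, and the same turn is seen in SjSS; *Itgb3* and *Itgb8* stay under 1 RPKM.

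*Cd300lf*, the inhibitory lipid receptor, fell furthest of the 8 genes with CpG in B6. The B6 samples were at 26.7, 34.1 and 37.7 CPM in controls, at 13.3, 14.7 and 17.5 CPM with ACs and at 2.22, 5.51 and 5.74 CPM with CpG. The SjSS samples were at 41.9, 36.0 and 26.7 CPM in controls, at 26.8, 21.7 and 24.2 CPM with ACs and at 10.3, 6.97 and 7.06 CPM with CpG. The 3 groups of B6 did not overlap, whereas in SjSS 1 AC treated sample reached the lowest control. The log2 fold change with CpG was -2.89 in B6 (SE 0.25, adjusted p = 1.02e-08), a 7.40-fold lower level, and -2.10 in SjSS (SE 0.24, adjusted p = 4.56e-07 by edgeR), 4.29-fold lower. With ACs *Cd300lf* fell in B6, with a log2 fold change of -1.12 (SE 0.23, adjusted p = 6.23e-04 by edgeR). In SjSS its log2 fold change was -0.53 (SE 0.22, adjusted p = 0.0507), which passed at 0.0179 without SjSS control replicate 3, at 0.0475 with no filter on low counts and at 0.00571 in a fit of the compared groups alone.

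AC treated SjSS BMDMs had more *Cd300lf* than AC treated B6 BMDMs by 0.68 on the log2 scale (SE 0.23, adjusted p = 0.0195), and CpG treated ones by 0.87 (SE 0.26, adjusted p = 0.0258 by edgeR), while controls differed by 0.09 (SE 0.22, adjusted p = 0.834). The difference with ACs did not pass without AC treated B6 replicate 1 or 2 (adjusted p = 0.0760 and 0.0564) or AC treated SjSS replicate 1 (0.0681). That with CpG did not pass in a fit of the compared groups alone (adjusted p = 0.0897), nor without CpG treated replicate 1 of B6 (0.116) or of SjSS (0.140). The interactions of strain with AC, at 0.59 (SE 0.32, adjusted p = 0.158), and with CpG, at 0.79 (SE 0.34, adjusted p = 0.200 by edgeR), did not pass. They passed with the replicate number as a block within strain (0.60, adjusted p = 0.0212, and 0.82, adjusted p = 0.0288), and the former also in a fit of the compared groups alone (adjusted p = 0.0437). *Cd300lf* overlaps *Rab37* on the other strand, and it has near relatives in the same cluster, so the authors' counting could have split reads among them.

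The Cd300 family as a whole did not move one way. Of 13 genes 12 were in the table and 11 tested, and with ACs 4 fell and 3 rose in B6, where 20.0% of all genes rose and 18.3% fell, and 3 fell and 3 rose in SjSS, where 28.6% of all genes rose and 29.4% fell. With CpG 5 fell and 4 rose in each strain, where 29.8% of all genes fell and 28.1% rose in B6 and 26.4% and 27.8% in SjSS. *Cd300a*, an inhibitory receptor that binds phosphatidylserine, fell with CpG, with log2 fold changes of -1.40 in B6 (SE 0.08, adjusted p = 2.78e-11) and -1.11 in SjSS (SE 0.08, adjusted p = 9.47e-10 by edgeR). *Cd300lb*, an activating receptor, fell with ACs, with log2 fold changes of -0.65 in B6 (SE 0.11, adjusted p = 7.32e-05) and -1.95 in SjSS (SE 0.11, adjusted p = 1.47e-11 by edgeR), with an interaction of -1.30 (SE 0.15, adjusted p = 1.51e-06). It was called lower with CpG as well, at -1.89 in B6 (SE 0.11, adjusted p = 2.59e-11) and -1.31 in SjSS (SE 0.11, adjusted p = 5.11e-09 by edgeR). *Cd300ld* fell with ACs in B6, at -0.88 (SE 0.09, adjusted p = 5.66e-07) and was at 0.00 in SjSS (SE 0.09, adjusted p = 0.973 by edgeR), an interaction of 0.88 (SE 0.13, adjusted p = 3.20e-05). *Cd300e* rose with CpG, from 7.84 ± 1.69 to 177 ± 11.0 CPM in B6 and from 2.55 ± 0.608 to 123 ± 22.5 CPM in SjSS. It rose less with ACs, by 1.04 on the log2 scale in B6 (SE 0.20, adjusted p = 4.17e-04) and 1.83 in SjSS (SE 0.24, adjusted p = 2.83e-06 by edgeR). The other tested relatives had group means between 0.588 CPM (*Cd300lg* with CpG in B6) and 220.1 CPM (*Cd300c2* in SjSS controls).

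Of 23 receptors for phosphatidylserine or apoptotic cells other than the 8 genes (3 of them the Cd300 genes *Cd300a*, *Cd300lb* and *Cd300ld*) 20 were tested, and with ACs 11 fell and 2 rose in B6, where 20.0% of all genes rose and 18.3% fell, and 8 fell and 4 rose in SjSS, where 28.6% of all genes rose and 29.4% fell. *Itgax*, the alpha chain of complement receptor 4, was called lower with ACs in B6, from 24.3 ± 5.51 to 7.52 ± 0.766 CPM, and was at 26.4 ± 2.13 and 25.4 ± 1.68 CPM in SjSS, with an interaction of 1.64 (SE 0.19, adjusted p = 1.35e-06 by edgeR). *Cd14*, a co-receptor for lipopolysaccharide that also tethers apoptotic cells, rose with ACs by a log2 fold change of 0.95 in B6 (SE 0.11, adjusted p = 2.24e-06) and 2.10 in SjSS (SE 0.12, adjusted p = 1.20e-11 by edgeR). Of 7 genes for signals that restrain uptake, 3 rose and 2 fell with ACs in B6, against the same 20.0% and 18.3% of all genes, and 3 rose and 0 fell in SjSS, against 28.6% and 29.4%. *Cd47*, the ligand of the inhibitory receptor SIRP alpha, was at 0.53 in B6 (SE 0.08, adjusted p = 1.93e-05) and 1.32 in SjSS (SE 0.08, adjusted p = 2.43e-11 by edgeR). *Cd24a* was called higher in SjSS too, at 1.50 (SE 0.44, adjusted p = 0.00713 by edgeR), on 53 counts over the 3 controls and 137 over the 3 AC treated samples. It also passed in B6, at 1.18 (SE 0.42, adjusted p = 0.0344 by edgeR), and the interaction of 0.32 (SE 0.62, adjusted p = 0.728) did not pass. The part of thymocyte RNA in these *Cd24a* values was not tested.

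*Tgm2*, transglutaminase 2, had the highest mean RPKM of the 8 genes in every group but the SjSS controls, and it moved in opposite directions with the 2 treatments. The B6 samples were at 899.9, 1149 and 1095 CPM in controls, at 1131, 1335 and 1286 CPM with ACs and at 474, 577 and 519.8 CPM with CpG. The SjSS samples were at 1039, 1084 and 889 CPM in controls, at 1503, 1559.6 and 1614 CPM with ACs and at 656, 633 and 599.9 CPM with CpG. With ACs all SjSS samples lay above every other sample, while B6 control and AC samples overlapped, and CpG samples lay below the rest in both strains. *Tgm2* rose with ACs in SjSS by a log2 fold change of 0.64 (SE 0.09, adjusted p = 1.01e-05 by edgeR). In B6 the value was 0.25 (SE 0.09, adjusted p = 0.0386), and it did not pass in a fit of the compared groups alone (adjusted p = 0.0585) or without B6 control replicate 1 (0.213) or AC treated B6 replicate 2 or 3 (0.149 and 0.107).

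The AC responses of *Tgm2* differed between the strains by 0.38 on the log2 scale (SE 0.13, adjusted p = 0.0301 by edgeR). This interaction did not pass when any 1 of 6 of the 12 samples was left out: B6 control replicate 2 or 3 (adjusted p = 0.0911 and 0.0678), SjSS control replicate 3 (0.0862), AC treated B6 replicate 1 (0.0875), or AC treated SjSS replicate 2 or 3 (0.0518 and 0.0666). AC treated SjSS BMDMs were higher than AC treated B6 BMDMs by 0.32 (SE 0.09, adjusted p = 0.00884 by edgeR), with an adjusted p of 0.0550 without AC treated B6 replicate 1. With CpG *Tgm2* fell by 1.00 on the log2 scale in B6 (SE 0.09, adjusted p = 2.76e-08) and by 0.67 in SjSS (SE 0.09, adjusted p = 6.01e-06 by edgeR), and the interaction of 0.33 (SE 0.13, adjusted p = 0.163) did not pass. With CpG the strains differed by 0.27 (SE 0.09, adjusted p = 0.0539), which became 0.0485 in a fit of the compared groups alone and 0.0302 without CpG treated B6 replicate 2. *Tgm2* overlaps *Rprd1b* on the other strand.

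Of the 8 transglutaminase family genes 4 were in the table and 3 tested. *F13a1*, the A subunit of coagulation factor XIII, went the other way to *Tgm2* in B6, from 129 ± 50.4 CPM in controls to 20.5 ± 3.04 CPM with ACs, a log2 fold change of -2.66 (SE 0.29, adjusted p = 6.31e-07 by edgeR). In SjSS it was at 28.9 ± 6.58 CPM in controls and 26.0 ± 7.51 CPM with ACs, a log2 fold change of -0.15 (SE 0.28, adjusted p = 0.683). The interaction was 2.51 (SE 0.40, adjusted p = 5.74e-05 by edgeR). Untreated SjSS BMDMs had less *F13a1* than untreated B6 BMDMs, by -2.16 on the log2 scale (SE 0.28, adjusted p = 2.81e-05 by edgeR). With ACs the strain difference was 0.35 (SE 0.28, adjusted p = 0.329 by edgeR). With CpG *F13a1* fell in both strains, at -0.98 in B6 (adjusted p = 0.00412) and -0.95 in SjSS (adjusted p = 0.00956 by edgeR).

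*Elmo1*, a subunit of the Rac exchange factor, rose with both treatments in both strains. The B6 samples were at 96.4, 98.5 and 90.7 CPM in controls, at 115, 119 and 122 CPM with ACs and at 156, 146 and 150.3 CPM with CpG. The SjSS samples were at 95.5, 94.3 and 99.3 CPM in controls, at 136, 122 and 142 CPM with ACs and at 155, 143 and 183 CPM with CpG. Within each strain no 2 treatments overlapped, and the order was control, ACs, CpG. The log2 fold change with ACs was 0.32 in B6 (SE 0.07, adjusted p = 0.00194) and 0.47 in SjSS (SE 0.07, adjusted p = 1.91e-05 by edgeR). With CpG it was 0.66 in B6 (SE 0.07, adjusted p = 2.28e-07) and 0.73 in SjSS (SE 0.07, adjusted p = 7.99e-08 by edgeR). Neither interaction passed, at 0.15 for AC (SE 0.10, adjusted p = 0.274) and 0.07 for CpG (SE 0.10, adjusted p = 0.771).

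AC treated SjSS BMDMs were at a log2 difference of 0.17 from B6 in *Elmo1* (SE 0.07, adjusted p = 0.0604 by edgeR), which passed at 0.0304 with DESeq2's Wald test, at 0.0361 with DESeq2's size factors in edgeR, at 0.0215 in a fit of the compared groups alone and at 0.0229 without AC treated SjSS replicate 2. Thymocytes, of which the ACs were made, express *Elmo1* too. Leaving out *Cd4*, which these macrophages carry also without ACs, the other 15 thymocyte markers summed to between 1.11 and 2.17 CPM in samples without ACs and between 2.50 and 3.95 CPM with ACs (*Cd4* was left out after values were seen). With *Cd4* the 16 markers summed to 8.85 to 11.1 CPM in B6 controls and 5.86 to 7.02 CPM with ACs, and to 11.0 to 12.9 and 15.7 to 19.7 CPM in SjSS. The part of thymocyte RNA in the AC response was not tested.

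*Dock1*, the other subunit of the exchange factor, moved against *Elmo1*. The B6 samples were at 52.6, 54.1 and 48.6 CPM in controls, at 40.7, 38.9 and 40.1 CPM with ACs and at 26.4, 26.3 and 27.6 CPM with CpG. The SjSS samples were at 42.8, 44.7 and 44.7 CPM in controls, at 42.0, 41.2 and 42.4 CPM with ACs and at 28.2, 27.8 and 27.1 CPM with CpG. With ACs the samples of the strains lay close together, without overlap, between 38.9 and 42.4 CPM, while the B6 controls all lay above the SjSS controls. *Dock1* fell with ACs in B6, with a log2 fold change of -0.38 (SE 0.05, adjusted p = 7.12e-06 by edgeR), and in SjSS its log2 fold change was -0.07 (SE 0.05, adjusted p = 0.222). The interaction was 0.30 (SE 0.07, adjusted p = 0.00222 by edgeR).

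The untreated strains differed in *Dock1*, with SjSS lower by a log2 difference of -0.23 (SE 0.05, adjusted p = 0.00268 by edgeR), and it was 0.07 with ACs (SE 0.05, adjusted p = 0.270) and 0.05 with CpG (SE 0.05, adjusted p = 0.548). With CpG *Dock1* fell by 0.95 in B6 (SE 0.05, adjusted p = 6.86e-12) and by 0.67 in SjSS (SE 0.05, adjusted p = 1.64e-09 by edgeR). The 2 CpG responses differed by 0.28 (SE 0.07, adjusted p = 0.0234 by edgeR), which did not pass in a fit of the compared groups alone (adjusted p = 0.0666) or without B6 control replicate 1 or 2 (0.0616 and 0.0735), CpG treated B6 replicate 2 (0.0586) or CpG treated SjSS replicate 1 or 2 (0.0659 and 0.0523). The AC and CpG interactions share the untreated samples, where the strains differed. *Dock1* overlaps *Fam196a* on the other strand.

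Of the 14 genes of the ELMO and DOCK families, all tested, 2 rose and 7 fell with ACs in B6, where 20.0% of all genes rose and 18.3% fell, and 3 rose and 4 fell in SjSS, where 28.6% of all genes rose and 29.4% fell. *Elmo2* fell with ACs, opposite to *Elmo1*, with log2 fold changes of -0.32 in B6 (SE 0.07, adjusted p = 0.00216) and -0.70 in SjSS (SE 0.08, adjusted p = 1.71e-07 by edgeR). *Dock2*, the exchange factor of blood cells, was the more abundant partner per length, at 24.5 RPKM in B6 controls where *Dock1* was at 5.55 RPKM. With ACs *Dock2* was at -0.05 in B6 (SE 0.06, adjusted p = 0.596) and 0.12 in SjSS (SE 0.06, adjusted p = 0.0891 by edgeR). It fell with CpG, at -0.49 in B6 and -0.42 in SjSS. Unlike *Dock1*, it was higher in untreated SjSS than B6 BMDMs, by 0.24 (SE 0.06, adjusted p = 0.00930 by edgeR). The strain difference was 0.41 with ACs (adjusted p = 1.66e-05) and 0.31 with CpG (adjusted p = 0.00131 by edgeR). *Dock9*, a Cdc42 exchange factor, was called lower with ACs in B6 at -1.35 (SE 0.29, adjusted p = 9.56e-04 by edgeR), at levels of 1.92 ± 0.293 and 0.757 ± 0.238 CPM. It fell with ACs in SjSS as well, at -0.75 (SE 0.30, adjusted p = 0.0379 by edgeR), and the interaction of 0.60 (SE 0.41, adjusted p = 0.284) did not pass. With CpG it was called lower in both strains, at -2.19 in B6 and -1.42 in SjSS. Of a list of 22 engulfment genes, all tested, which shares *Elmo2*, *Elmo3*, *Dock2* and *Dock5* with that family list, 11 rose and 1 fell with ACs in B6, against 20.0% and 18.3% of all genes, and 14 rose and 3 fell in SjSS, against 28.6% and 29.4%. *Src*, a tyrosine kinase of integrin signalling, was the only one of them called with ACs, in both strains. Of all genes, 4.47% were called with ACs in B6 and 12.9% in SjSS. *Src* rose from 14.5 ± 3.10 to 41.8 ± 7.73 CPM in B6 and from 15.0 ± 0.544 to 98.3 ± 4.59 CPM in SjSS. Its interaction was 1.20 (SE 0.18, adjusted p = 4.10e-05 by edgeR).

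**Figure D4:**
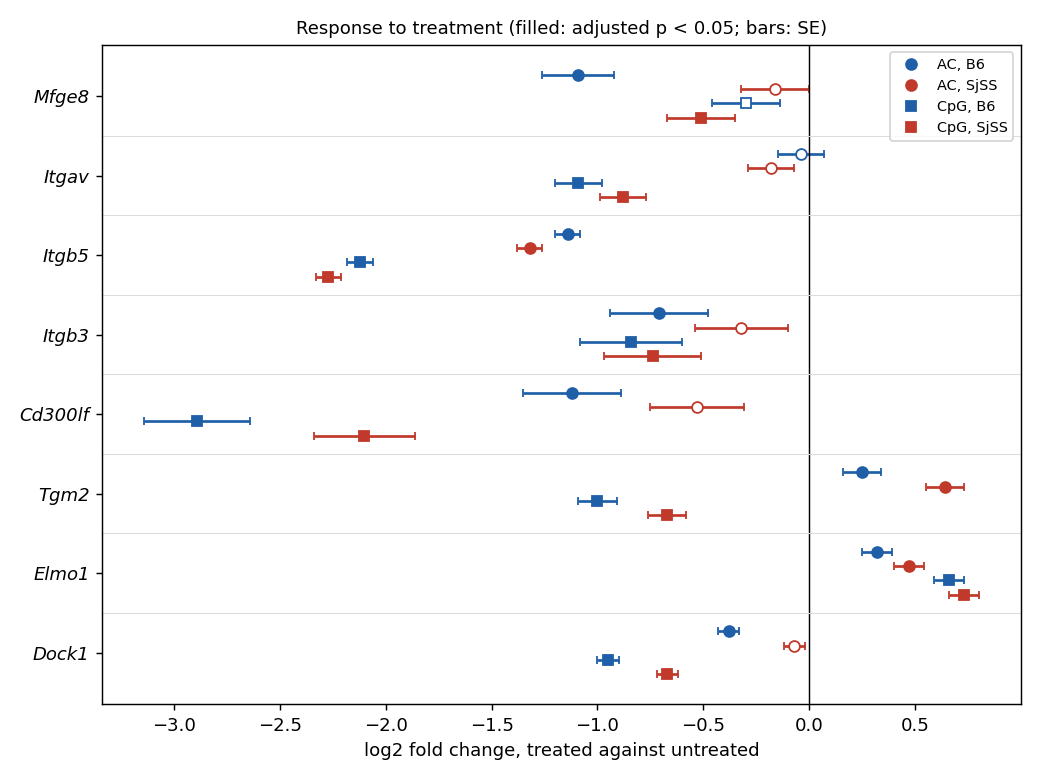
Log2 fold change of treated against untreated BMDMs (x axis) for each gene (y axis), with circles for ACs, squares for CpG, blue for B6, red for SjSS, bars of 1 SE, and filled symbols where the adjusted p was under 0.05. *Itgb5* and *Cd300lf* with CpG lie furthest to the left, at -2.12 and -2.89 in B6, and *Tgm2* lies right of 0 with ACs and left of it with CpG.

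Without treatment, 2 of the 8 genes were higher in SjSS and 1 lower, where 9.04% of all tested genes were higher and 10.6% lower. With ACs, 5 were higher and 0 lower, where 24.0% of all genes were higher and 25.5% lower. With CpG, 3 were higher and 0 lower, where 10.2% were higher and 9.57% lower. Called were 0, 1 and 0 of the 8 in these comparisons, where 2.01%, 8.93% and 2.61% of all genes were. The interaction of strain and AC passed for 3 of the 8, *Mfge8*, *Dock1* and *Tgm2*. All 3 were positive, where 19.6% of all genes had a positive interaction and 18.3% a negative one. For *Mfge8* and *Dock1* the positive sign is a weaker fall in SjSS (-0.16 and -0.07, against -1.09 and -0.38 in B6). For *Tgm2* it is a larger rise (0.64, against 0.25 in B6). These values hold under TMM scaling, whose factors were lowest in the AC treated SjSS samples. Interactions and strain differences on unadjusted library totals were not tested. The interaction of strain and CpG passed for 1, *Dock1*, also positive, where 3.23% of all genes had a positive one and 2.62% a negative one. Here too *Dock1* fell less in SjSS (-0.67, against -0.95 in B6). None of the 8 was called in either interaction, where 7.53% and 0.614% of all genes were. The median log2 strain difference of the 8 genes with ACs was 0.301, where that of all genes was -0.046, and without treatment it was 0.052, where that of all genes was -0.009.

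**Figure D5:**
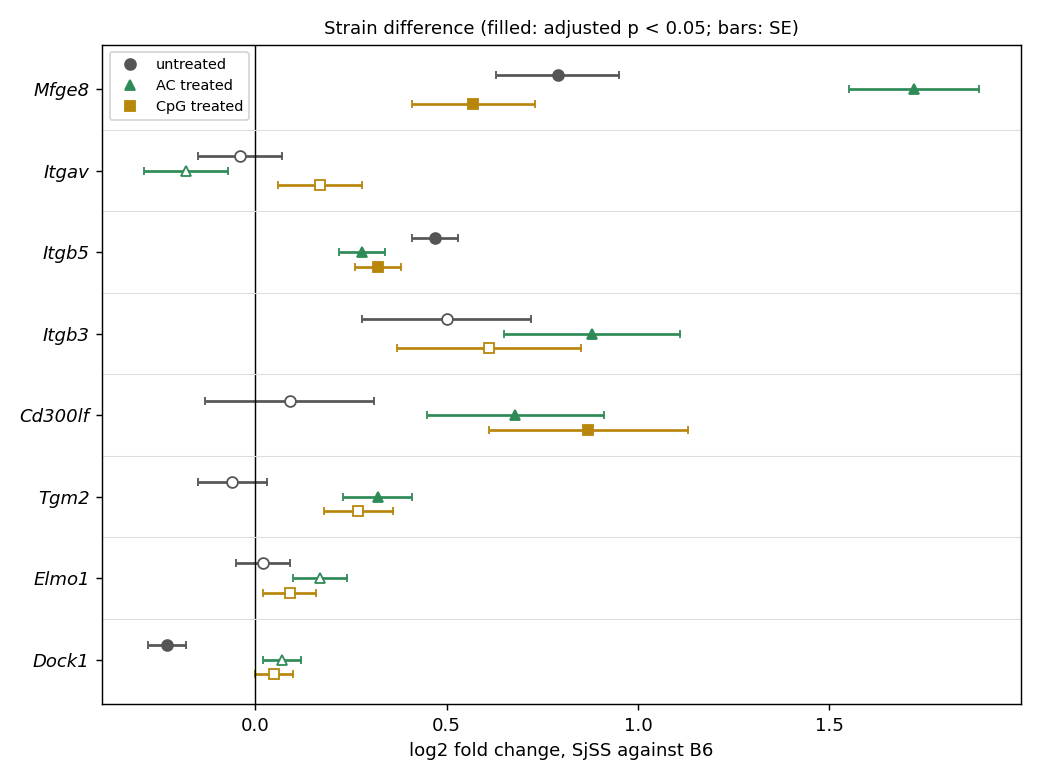
Log2 difference of SjSS from B6 BMDMs (x axis) for each gene (y axis), untreated (circles), AC treated (triangles) and CpG treated (squares), with bars of 1 SE and filled symbols where the adjusted p was under 0.05. *Mfge8* with ACs, at 1.72, stands apart from all other values, and *Dock1* without treatment, at -0.23, is the only filled symbol left of 0.

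The 2 treatments were also set against each other within a strain, a comparison added after values were seen in which duration differs as well as stimulus. With ACs rather than CpG, 5 genes were higher in both strains, *Itgav*, *Itgb5*, *Cd300lf*, *Dock1* and *Tgm2*, and *Elmo1* was lower in both. In B6, 5 were higher and 2 lower, where 23.7% of all genes were higher and 22.4% lower, and in SjSS 5 were higher and 1 lower, where 25.7% were higher and 26.5% lower. Called were 1 in B6 and 2 in SjSS, where 7.11% and 9.18% of all genes were. *Cd300lf* was 3.41-fold higher with ACs in B6 (log2 1.77, SE 0.26, adjusted p = 1.26e-05) and 2.98-fold higher in SjSS (log2 1.57, SE 0.24, adjusted p = 1.85e-05 by edgeR). *Tgm2* was 2.39-fold higher in B6 (log2 1.26, SE 0.10, adjusted p = 2.69e-09) and 2.48-fold higher in SjSS (log2 1.31, SE 0.10, adjusted p = 1.21e-09 by edgeR). *Mfge8* was lower with ACs in B6, at -0.80 (SE 0.17, adjusted p = 6.06e-04), and at 0.36 in SjSS (SE 0.16, adjusted p = 0.0755 by edgeR), the latter passing at 0.00480 in a fit of the compared groups alone. *Elmo1* with ACs against CpG in SjSS, at -0.26 (SE 0.07, adjusted p = 0.00511 by edgeR), had an adjusted p of 0.0520 without CpG treated SjSS replicate 3.

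Across the 18 samples 4 of the genes moved most closely together in log2 CPM. These correlations are descriptions, since the points share strains, treatments and scaling. *Itgav*, *Cd300lf*, *Dock1* and *Itgb5* had Pearson correlations of 0.81 to 0.92 with one another, and *Elmo1* had -0.80 to -0.91 with each of them. *Mfge8* was nearest to *Itgb3* (r = 0.81) and near 0 with *Itgav* (r = -0.01). Among 12294 genes with a mean of at least 1 CPM, those most like *Mfge8* were *Mamdc2* (r = 0.929) and *H2-Eb1* (r = 0.913), a class II histocompatibility gene. The closest to *Itgb5* were *Prune2* (0.996) and *Abhd15* (0.988), to *Cd300lf* *Naip5* (0.978) and *Mfsd12* (0.976), and to *Tgm2* *Smpdl3a* (0.981) and *Isy1* (0.978). For *Itgav* they were *Spsb1* (0.976) and *Pcmtd1* (0.971), for *Itgb3* *Ddah2* (0.911) and *Sphk1* (0.899), for *Elmo1* *Sipa1l1* (0.981) and *Ccdc50-ps* (0.980), and for *Dock1* *Tbc1d4* (0.989) and *Bank1* (0.989).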

How the data were processed

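RNA of 18 BMDM samples was sequenced by the authors, who per the labels used STAR, mm10 and Partek. The values they deposited were raw estimated counts per gene, in a table with 20615 gene rows, and 41.1% of them were not whole (tolerance 1e-06). Whether the counting used strand is not given in the sources used here, so overlapping genes on opposite strands may share reads. Estimated counts were rounded. The software was edgeR 4.0.16 on limma 3.58.1, and DESeq2 1.42.0, all under R 4.3.3. Genes passing filterByExpr (15789) were scaled by TMM and fitted with 1 mean for each of 6 groups by edgeR's quasi-likelihood method, with Benjamini-Hochberg adjustment within each comparison over all tested genes. A gene passed at an adjusted p under 0.05 and was called if its log2 fold change also exceeded 1.3 in size. The SE was the log2 fold change divided by the square root of F. CPM used TMM scaled totals, and RPKM divided CPM by the merged exon length of GENCODE M21. Positions are those of the deposited table. Its starts equalled those of GENCODE M21 for all 8 genes, and its ends lay 1 base further for 6.

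The 8 genes, the companion lists and the marker lists were chosen with earlier results of these data known. In each companion list the 2 largest called changes with ACs per strain were named, with further members of the integrin, Cd300, ELMO and DOCK families, and for each of the 8 genes the 2 most correlated genes over 18 samples. *Cd300a*, *Cd300ld*, *Elmo2* and *Dock2* were picked from those families after their values were seen. Each result was recomputed with DESeq2 (its Wald test, and its size factors in edgeR), with other filters, without the fold threshold, in fits of just the groups compared, with the replicate number as a block, and with every sample omitted in turn. The comparisons of ACs with CpG were added after values were seen. Promoters were scanned for 4 motifs on both strands, without mismatches. The script was tested on simulated data. Python 3.11.15 (matplotlib 3.10.9, pandas 2.3.3, numpy 2.4.6) served for tabulation and plotting.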

Additional observations from a re-analysis of the deposited data

Results flagged for a closer look

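The response to ACs differed between the strains, by a test of the difference itself (edgeR's quasi-likelihood test of the interaction, SjSS response minus B6 response), for *Mfge8* (0.93 on the log2 scale, adjusted p = 0.00365), *Dock1* (0.30, adjusted p = 0.00222) and *Tgm2* (0.38, adjusted p = 0.0301). The response to CpG differed between the strains in the same test for *Dock1* (0.28, adjusted p = 0.0234). The interactions of *Tgm2* with AC and of *Dock1* with CpG were each lost when single samples were left out. All these interactions rest on scaled library totals, and none was recomputed on unadjusted totals.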

How the results depend on the processing

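Over 1216 recomputed log2 values of the 8 genes, 1142 kept direction and side of the threshold, 31 no longer passed, 29 newly passed and 14 changed sign. For 56 of 88 results every recomputed value kept both direction and side. All 14 changes of sign came with 1 sample left out, of results that had not passed. The log2 ranges with each sample left out were -0.08 to 0.02 for *Itgav* with ACs in B6, -0.17 to 0.10 (*Itgav*), -0.07 to 0.25 (*Cd300lf*), -0.01 to 0.04 (*Elmo1*) and -0.16 to 0.02 (*Tgm2*) between untreated strains, -0.02 to 0.16 for *Elmo1* between CpG treated strains, and -0.15 to 0.34 (*Itgb3*) and -0.04 to 0.14 (*Elmo1*) for the interaction of strain and CpG. Without a fold threshold, members counted were 7 and 3 with ACs in B6 and SjSS, 7 and 8 with CpG, 3, 5 and 3 between strains (untreated, ACs, CpG), 3 and 1 in the interactions with AC and CpG, and 7 and 6 for ACs against CpG in B6 and SjSS. With 1 sample left out, members called ranged from 0 to 1 for ACs in SjSS (0 without AC treated SjSS replicate 1). They ranged from 1 to 2 for ACs against CpG in both strains: 2 in B6 without AC treated replicate 1 or CpG treated replicate 2, and 1 in SjSS without AC or CpG treated replicate 3.

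Same-numbered samples of a strain deviated from their group means with correlations of 0.02 to 0.264, over 0.1 in 9 of 18 pairs, and 16 of 18 comparisons had the own number as the best match; across strains the range was -0.094 to 0.06. Between B6 controls and CpG treated B6 samples all 3 pairs were over 0.1 (0.137 to 0.264), and the value with the block is given beside the call it changes there. In no other pair of groups were all 3 over 0.1, and the sources used here do not say that numbers pair samples. The replicate number as a block left the number of called members as it was in every comparison (for example 1 for ACs in SjSS, 2 for CpG in B6). It added 3 passing values of 88 across strains: *Elmo1* between AC treated strains (adjusted p = 0.0496), *Tgm2* between CpG treated strains (0.0261) and *Mfge8* for ACs against CpG in SjSS (0.0239). As a block within strain it added 6 of 64 and lost none: *Cd300lf* with ACs in SjSS (0.00459) and in both interactions (0.0212 and 0.0288), *Mfge8* with CpG in B6 (0.0210) and for ACs against CpG in SjSS (0.00810), and *Tgm2* in the interaction with CpG (0.0240). The causes of these shifts were not tested. *Itgb3*, at 1.54 to 6.03 CPM, had the fewest counts of the 8 genes.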
